A study of Mus musculus with 43 samples.

Results

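The genes described here are 42 genes of PPARA signalling and fatty acid oxidation in mouse liver. They were taken by gene symbol from 2 deposited expression tables, and all 42 were found, among 14622 genes in the hemizygous and 13741 in the homozygous table. By role they comprise 3 regulators, 3 genes of the carnitine shuttle, 11 of mitochondrial oxidation, 3 of electron transfer, 1 of ketogenesis, 7 of peroxisomes, 4 acyl-CoA thioesterases, 2 further PPARA targets, 4 of fatty acid uptake and activation and 4 of lipid droplets and lipolysis. Values are log2 CPM, the log2 of reads scaled to library size, so a difference of 1 is a factor of 2.

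All livers were from males, 4 to 5 months old, of a C57BL6/J x FVBN background. PiZ mice are a model of alpha-1-antitrypsin deficiency and carry the human Z variant as a transgene. LIRKO mice lack the insulin receptor (Insr) in liver, and F1KO adds the loss of Foxo1, whose protein is a transcription factor that insulin restrains. The hemizygous table holds 3 wild-type (WT) mice, 4 LIRKO mice, 5 PiZ (Z) mice, 4 PiZ x LIRKO (Z) mice, called Z LIRKO below, 5 PiZ (Z*) mice, called Zstar, and 5 PiZ x LIRKO x F1KO (Z) mice, called Z LIRKO F1KO. The homozygous table holds 3 WT and 4 LIRKO mice, 3 PiZ (ZZ) mice and 7 PiZ x LIRKO (ZZ) mice, called ZZ LIRKO. Its WT and LIRKO mice are 7 animals that the hemizygous table also holds, so 43 libraries come from 36 mice. Zstar and Z LIRKO F1KO carry another source name in the labels than the other groups of their table. Source and Foxo1 loss therefore cannot be told apart where Z LIRKO F1KO is set against Z LIRKO. The same holds where the LIRKO effects of both sources are compared. The labels do not say which Cre or promoter drives the knockouts, when the livers were taken or whether the mice had eaten.

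PPARA is a nuclear receptor that binds fatty acids and, paired with a retinoid X receptor, switches on genes for burning fat when a liver is fasted. Fatty acids enter the hepatocyte, are activated to acyl-CoA and pass into mitochondria through the carnitine shuttle, where repeated cycles of oxidation shorten them and hand electrons to the respiratory chain. Peroxisomes begin the oxidation of very long and dicarboxylic fatty acids, ketogenesis exports the product of oxidation to other tissues, and lipid droplets hold what is not burnt.

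PPARA binds DNA at a direct repeat of a short element with a spacer of a single base, here searched on both strands as AGGNCA, a spacer N and AGGNCA again, where N is any base. Of 42 members, 36 had promoter windows in the RefSeq table (GRCm38.p6; 250 bases before to 50 after the start site, 42 windows), while Abcd2, Acaa2, Angptl4, Decr1, Hsd17b4 and Vnn1 had none. The repeat occurred in 125 of 32851 promoter windows of all genes (0.381%) and in the window of 1 member, Fabp1, which encodes the liver fatty acid-binding protein. The forkhead core GTAAACA, searched the same way, occurred in 1199 windows (3.65%) and in 0 member windows. A match is a run of letters in this window and not a measured binding site. The Fabp1 stretch is shown because it holds the match, in capitals and read on the opposite strand as AGGCCATAGGTCA, and because Fabp1 had the highest WT level per kilobase of all members. The Hadhb stretch is shown because it is the whole space between Hadha and Hadhb, the genes of both subunits of the mitochondrial trifunctional protein, which point away from each other. In GENCODE M21 on GRCm38 Hadha ends at base 30155162 of chromosome 5 (minus strand) and Hadhb begins at base 30155248 (plus strand). The stretches are the plus strand of chr6:71199629-71199826 for Fabp1 and of chr5:30155163-30155247 for Hadhb, from RefSeq.
Fabp1: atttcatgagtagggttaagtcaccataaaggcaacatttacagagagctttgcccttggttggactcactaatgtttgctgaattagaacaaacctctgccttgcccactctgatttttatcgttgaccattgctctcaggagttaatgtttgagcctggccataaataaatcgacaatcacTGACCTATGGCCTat
Hadhb: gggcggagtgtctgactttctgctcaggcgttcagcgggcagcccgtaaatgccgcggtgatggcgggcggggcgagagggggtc

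The libraries held 13834431 to 23938315 reads in the hemizygous table and 38177840 to 90092990 in the homozygous table. In the hemizygous table Insr stood at 5.08 to 6.10 log2 CPM in the 13 libraries of LIRKO genotypes against 6.57 to 7.26 elsewhere. Among these 13 it was at 5.08 to 5.44 in Z LIRKO F1KO, 5.75 to 6.10 in LIRKO and 5.67 to 5.99 in Z LIRKO. Foxo1 stood at 2.61 to 2.98 in Z LIRKO F1KO against 5.0 to 6.39 in the other groups of this table. Both genes were thus as labelled. All 8 hepatocyte markers had at least 9651 reads in each library. The 3 WT mice differed among themselves: mouse 1564 was lowest in 37 of 42 members by the hemizygous values and in 40 by the homozygous ones, and mouse 1601 was highest in 33 and 35. A clock value, the mean log2 CPM of Dbp, Tef, Hlf, Per3 and Nr1d2 minus that of Arntl, Clock, Npas2, Nfil3 and Cry1, was -0.73, 0.13 and 1.48 in WT mice 1564, 1586 and 1601, and 2.04 to 4.01 in LIRKO. In ZZ LIRKO, mice 1876 and 1877 stood apart from the other 5, with clock values of -1.89 and -0.35 against 1.95 to 3.45 and Fabp1 at 9.20 and 9.49. Prss2, a pancreas gene, was above 0 log2 CPM in 11 libraries, those of WT mice 1586 and 1601 among them, so leaving these out leaves WT mouse 1564 as the sole control.

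The shared animals gave close levels in both tables for most members. Over these 7 mice, 36 of 42 members differed by less than 0.5 log2 on average between the tables, and the median difference was -0.08. The exceptions were all higher in the homozygous table. Hadhb averaged 7.61 there and 5.0 in the hemizygous table, a difference of 2.61 ± 0.10 (SD, n = 7), while Acot1, Acot2, Acaa1b, Acaa1a and Acot4 differed by 0.88, 0.82, 0.78, 0.57 and 0.57. Levels of these genes are therefore read within a table only. Acot1 and Acot2 share 95.5% of aligned coding bases, with an identical run of 273 bases, and Acaa1a and Acaa1b share 96.5%, with a run of 327 bases. Reads may be split between such copies, so the values of the Acot genes and of Acaa1a and Acaa1b are uncertain. No source used here gives the strand rule of the counting, so reads of G0s2 and of Lamb3 on the opposite strand, and those of other overlapping pairs, cannot be told apart.

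**Figure D1:**
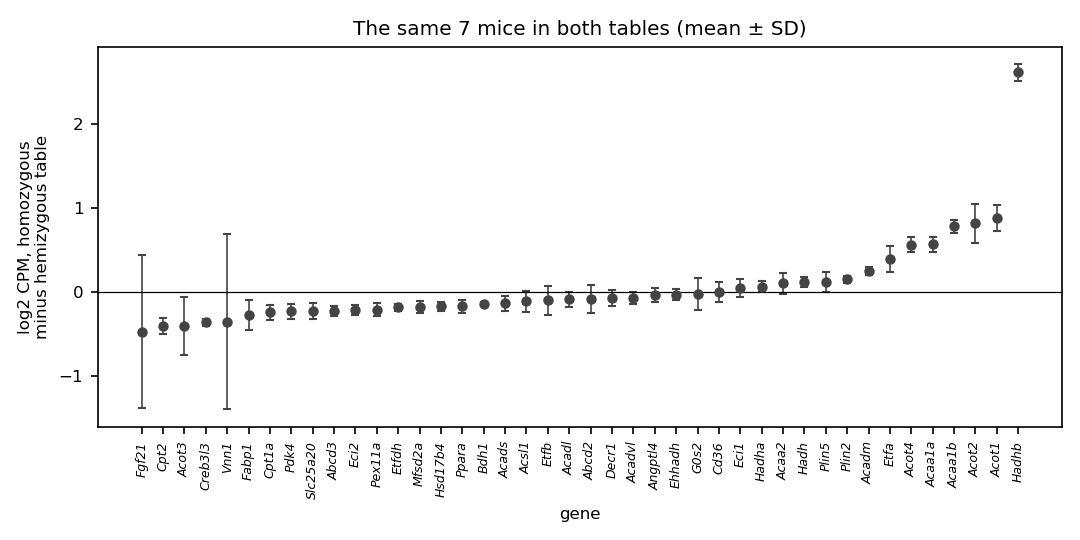
Difference of each member between both tables in the same 7 mice, in log2 CPM (homozygous minus hemizygous, y axis), with members ordered by it along the x axis. Points are means and bars are SD over mice; Hadhb lies at 2.61 and 36 members lie within 0.5 of 0.

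In WT liver (hemizygous values) the members spanned a wide range of levels per kilobase of exon. Fabp1 was first at 13.40 log2 CPM per kilobase, followed by Acaa2, the mitochondrial thiolase, at 9.25, Acaa1b, a peroxisomal thiolase, at 8.24, Etfb, a subunit of the electron transfer flavoprotein, at 7.99 and G0s2, an inhibitor of the lipase that opens lipid droplets, at 7.78. Ppara itself was at 5.45 and ranked 25 of 42. Replicate mice lay close together for Creb3l3 and most mitochondrial enzymes, less so for Eci1 and Eci2, and far apart for several inducible genes. The pooled SD within groups was 0.15 log2 for Creb3l3, 0.16 for Acadvl, 0.17 for Acads and Acadm, 0.18 for Cpt2 and 0.23 for Cpt1a. It was 0.29 for Eci1 and 0.36 for Eci2. For the inducible genes it was 1.50 for Fgf21, 1.32 for Vnn1, 1.14 for Acot3, 1.03 for Mfsd2a and 0.90 for Abcd2.

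**Figure D2:**
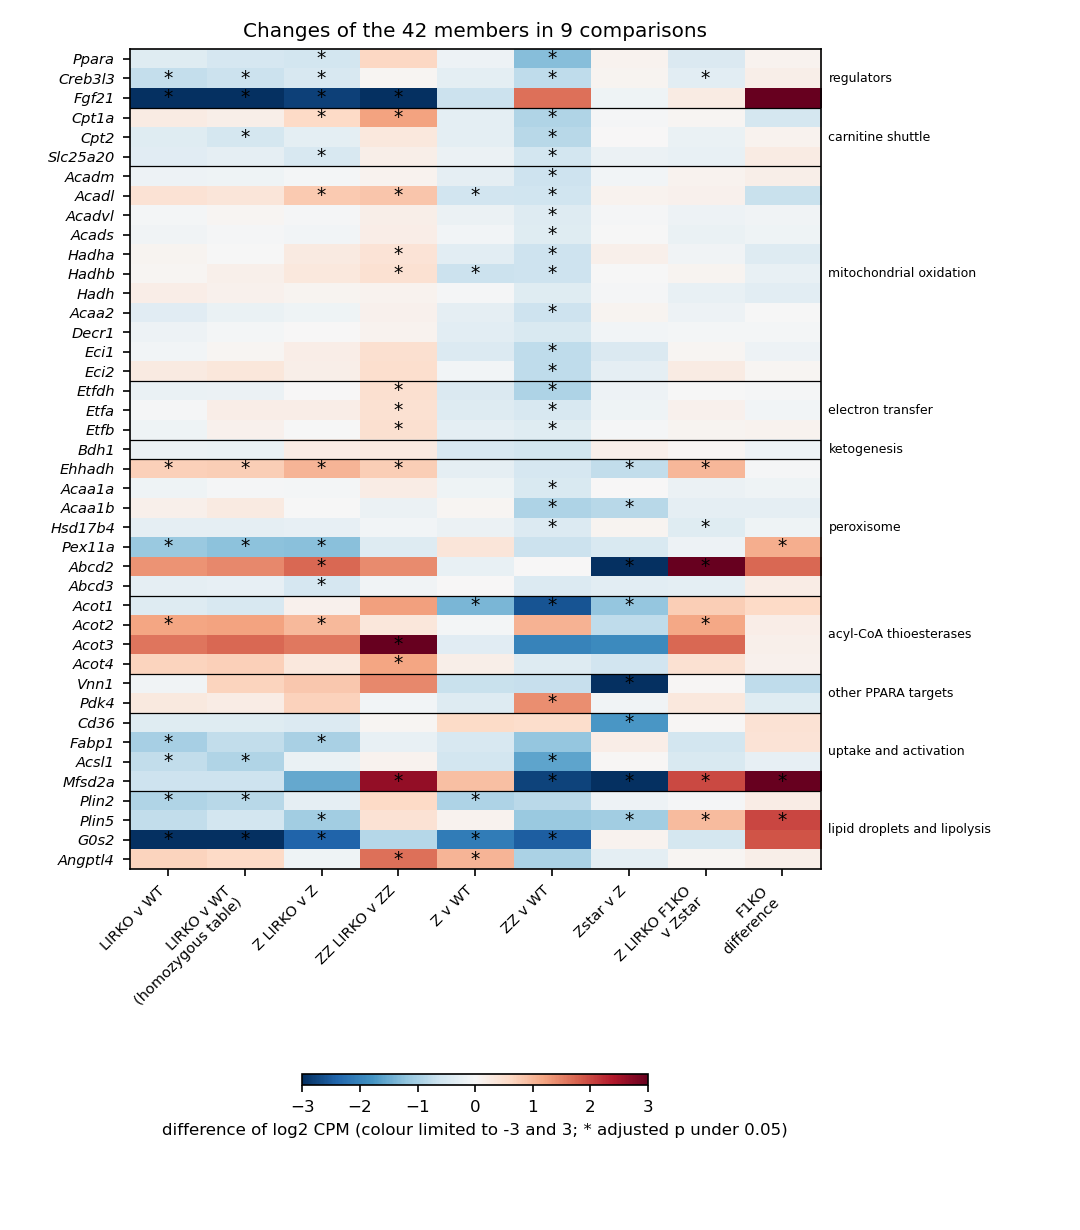
Differences of log2 CPM (colour, red higher and blue lower, limited to -3 and 3) of the 42 members, in rows grouped by role, in 9 comparisons, in columns. Asterisks mark adjusted p under 0.05 (limma, Benjamini-Hochberg over all genes tested); the column of ZZ against WT has 25 of them.

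Loss of the insulin receptor without the PiZ transgene was followed by lower G0s2, Creb3l3, Fgf21, Plin2, Fabp1, Pex11a and Acsl1 and higher Ehhadh and Acot2, while no gene of mitochondrial oxidation passed the test. In LIRKO against WT, by the hemizygous values, 7 of 42 members fell and 2 rose, where 12% and 11.8% of all 13596 genes tested fell and rose (23.7% together). The 21.4% of members called is near the share of all genes. The median difference of the members was -0.14 against 0.01 for all genes. G0s2 stood at 6.61, 7.96 and 8.17 log2 CPM in the WT mice and at 4.01, 3.74, 3.26 and 4.29 in the LIRKO mice. The groups do not overlap, and G0s2 fell by 3.75 ± 0.52 (limma, adjusted p = 1.13e-05). Fgf21, a hormone the liver secretes in fasting, had 16, 83 and 198 reads in the WT mice and 9, 3, 4 and 3 in the LIRKO mice, or 0.14, 2.03 and 3.26 against -0.92, -2.70, -2.09 and -2.48 log2 CPM. It fell by 3.86 ± 1.05 (adjusted p = 0.00905), a value that rests on few reads. Creb3l3, a liver transcription factor that acts with PPARA, was at 8.52, 8.71 and 8.70 in WT and at 7.87 to 8.0 in LIRKO mice, all lower, and fell by 0.71 ± 0.12 (adjusted p = 0.000124). In whole liver, fewer cells of a type and less RNA per cell cannot be told apart.

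Of 4 droplet and lipolysis genes 2 fell, G0s2 and Plin2, while Plin5 (-0.74 ± 0.31) and Angptl4 (0.67 ± 0.31) did not pass. Plin2, which coats lipid droplets, was at 8.78, 9.23 and 9.96 in WT and at 8.19 to 8.54 in LIRKO (-0.90 ± 0.26, adjusted p = 0.0133). Fabp1 was at 12.12 to 13.15 and at 11.40 to 11.71 (-0.98 ± 0.27, adjusted p = 0.0103), and Pex11a, which promotes peroxisome division, at 5.84 to 7.27 and at 5.33 to 5.59 (-1.12 ± 0.26, adjusted p = 0.00315). In Plin2, Fabp1 and Pex11a the LIRKO mice lay below every WT mouse. Acsl1, which activates long-chain fatty acids, fell by 0.73 ± 0.24 (adjusted p = 0.0262) with overlapping groups. The members that rose were Ehhadh, the peroxisomal bifunctional enzyme, from 8.25, 8.52 and 9.39 in WT to 9.17 to 9.73 (0.72 ± 0.23, adjusted p = 0.0274), and Acot2, a mitochondrial thioesterase (1.18 ± 0.40, adjusted p = 0.0365), also with overlap. None of the 11 mitochondrial oxidation genes, the 3 electron transfer genes or the 3 carnitine shuttle genes passed the test (limma, against 15 members with an unadjusted p under 0.05), and the differences were 0.24 ± 0.17 for Cpt1a and -0.37 ± 0.23 for Ppara. With the clock value as a covariate Ehhadh, Acot2, Acsl1 and Plin2 no longer passed. The Ehhadh and Acot2 calls were also lost with only the groups compared. Leaving out a mouse lost the Acot2 call in 5 of 7 fits and those of Ehhadh and Acsl1 in 4 each. Without the Prss2 libraries 7 members rose and 2 fell, so the balance of directions rests on WT mice 1586 and 1601. Macrophage markers were higher, 4 of 6, with a summed level of 8.58 to 8.87 in LIRKO against 8.09 to 8.48 in WT. The summed hepatocyte markers were at 15.86 to 16.44 against 16.82 to 17.04. Taken singly, 2 of 8 hepatocyte markers passed as lower and 1 as higher, with a median difference of 0.05. The summed stellate markers, at 8.21 to 8.36 against 7.79 to 7.89, and endothelial markers, at 8.12 to 8.29 against 7.92 to 8.09, were also higher in every LIRKO mouse. Of these markers 1 of 5 stellate and 0 of 5 endothelial ones passed as higher. Their part in these differences was not tested.

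The homozygous values measure the same 7 mice again, so they are no independent repeat. By them 7 members fell and 1 rose in LIRKO against WT, where 14% and 13.8% of 13690 genes tested did (27.8% together). G0s2 (-3.69 ± 0.49), Creb3l3 (-0.65), Pex11a (-1.22), Fgf21 (-3.99), Acsl1 (-0.90) and Plin2 (-0.84) fell in both and Ehhadh (0.75) rose in both. By the homozygous values too the Ehhadh call was lost in 4 of 7 fits that leave out a mouse. Cpt2, the carnitine palmitoyltransferase of the inner mitochondrial membrane, fell by 0.53 ± 0.13 (adjusted p = 0.00626), against a difference of -0.36 ± 0.14 in the hemizygous values that did not pass. Without the Prss2 libraries 10 members rose and 1, G0s2, fell. The Plin2 call was lost in 5 of 8 settings and in 6 of 7 fits that leave out a mouse. Under plain library sums the share of higher calls among all called genes moved from 49.5 to 65% in the hemizygous and from 49.7 to 65.8% in the homozygous values, with 3 members higher and 7 lower, and 3 higher and 6 lower.

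**Figure D3:**
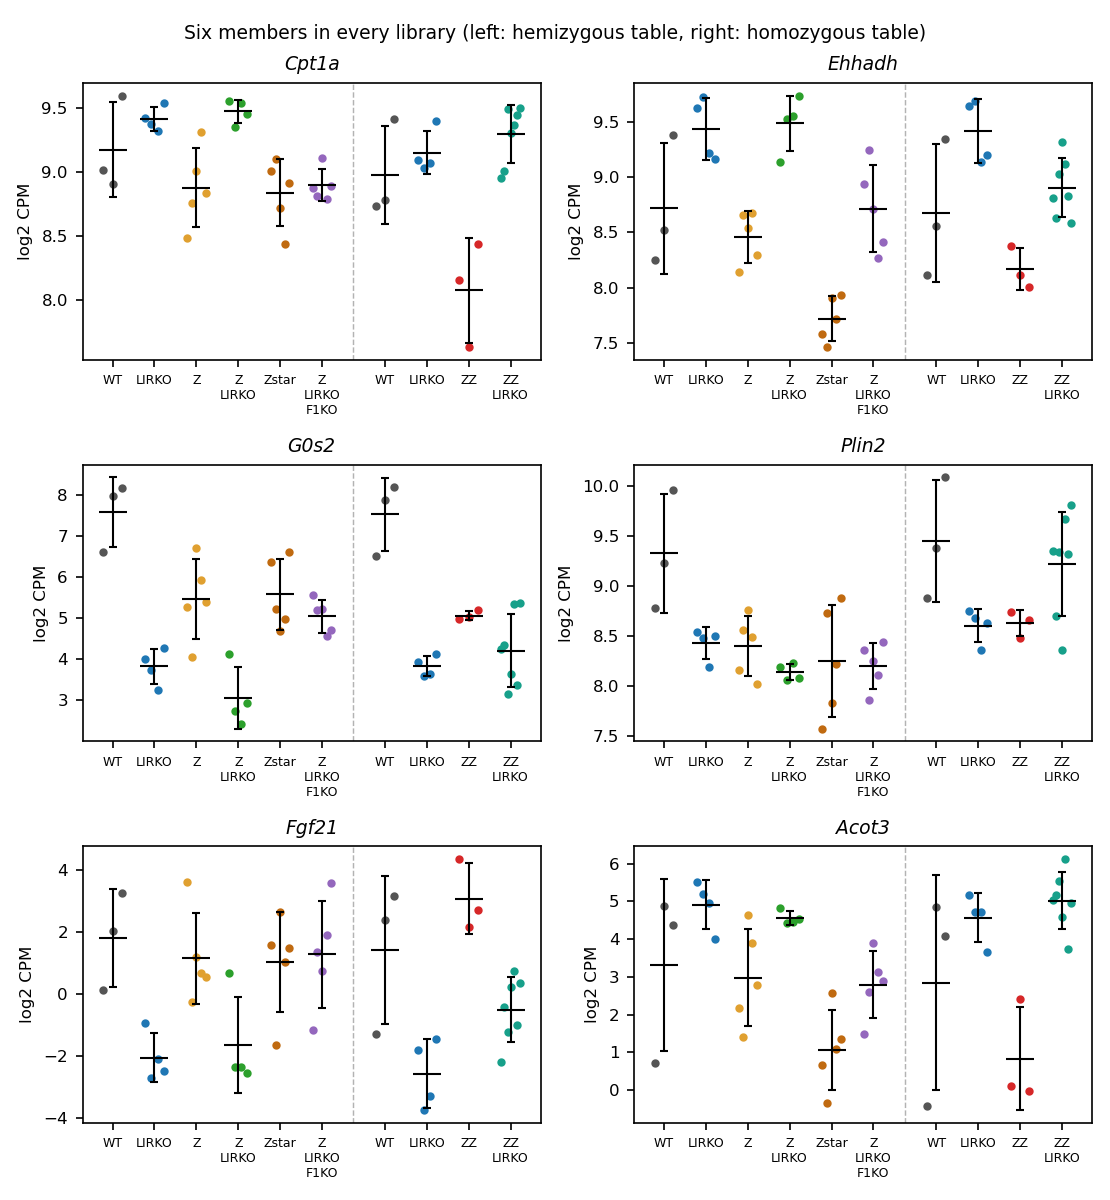
Levels of Cpt1a, Ehhadh, G0s2, Plin2, Fgf21 and Acot3 in log2 CPM (y axes) in each library, by group (x axes), with the hemizygous table left and the homozygous table right of the dashed line. Points are mice, bars are the mean and SD; Cpt1a is at 7.63 to 8.44 in the ZZ mice and Ehhadh at 7.46 to 7.93 in the Zstar mice.

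On the PiZ background, loss of the insulin receptor came with lower Creb3l3, Pex11a and G0s2 and with higher Cpt1a, Acadl and Ehhadh. In Z LIRKO against Z 9 members fell and 5 rose, where 17.7% of all genes fell and 16.7% rose (34.3% together), and the median of the members was -0.03. The 33.3% of members called is near the share of all genes. Ppara was at 6.86, 6.74, 6.56 and 6.62 log2 CPM in Z LIRKO and at 6.34, 7.09, 7.75, 7.65 and 7.33 in Z. Mouse 1410 of the Z group lay below the Z LIRKO mice and the others of that group above them, and the fall was 0.54 ± 0.20 (adjusted p = 0.0371). This call was lost with plain library sums, with quantile normalization, with only the groups compared and in 6 of 9 fits that leave out a mouse. Creb3l3 fell by 0.49 ± 0.11 (adjusted p = 0.00106). Fgf21 had 33, 3, 4 and 3 reads in Z LIRKO and 17 to 311 in Z, and fell by 2.80 ± 0.92 (adjusted p = 0.021), a call lost in 3 settings, voom weights among them, and in 4 of 9 fits that leave out a mouse.

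The genes that rose were enzymes and a transporter. Cpt1a, which makes the acylcarnitines that enter mitochondria, stood at 9.35 to 9.55 in Z LIRKO and at 8.48, 8.75, 9.0, 9.31 and 8.84 in Z (0.60 ± 0.15, adjusted p = 0.00351). Acadl, the long-chain acyl-CoA dehydrogenase, stood at 8.01 to 8.21 and at 6.96 to 7.65 (0.78 ± 0.15, adjusted p = 0.000352). Ehhadh stood at 9.14 to 9.74 and at 8.14 to 8.68 (1.03 ± 0.21, adjusted p = 0.000505). In each of these every Z LIRKO mouse lay above every Z mouse, as in Abcd2, a peroxisomal transporter of very long acyl chains (1.71 ± 0.55), and Acot2 (0.96 ± 0.36). The Acot2 call was lost in 7 of 9 fits that leave out a mouse and the Abcd2 call in 2. Those of Cpt1a, Acadl and Ehhadh were lost in 0. Pex11a fell from 6.15 to 7.50 in Z to 5.19 to 5.92 (-1.25 ± 0.23, adjusted p = 0.000228), without overlap, and G0s2 from 4.06 to 6.71 to 2.43 to 4.14 (-2.41 ± 0.45, adjusted p = 0.000288), with overlap. The others that fell were Fabp1 (-0.96 ± 0.24), Plin5 (-1.04 ± 0.27), a droplet protein that ties droplets to mitochondria, Abcd3 (-0.50 ± 0.15), a peroxisomal transporter, and Slc25a20 (-0.48 ± 0.16), the carrier of the carnitine shuttle. Plin2 differed by -0.26 ± 0.23 and did not pass. Without Z LIRKO mouse 1450 there were 8 calls, 3 higher and 5 lower.

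The LIRKO effect on each member was compared between Z and WT backgrounds by the interaction, which 0 of 42 members passed as higher and 0 as lower, against 0.0588% and 0.14% of all genes (0.199% together). By limma 0 members had an unadjusted p under 0.05, and 0 passed with voom weights. The difference of effects was 0.35 ± 0.23 for Cpt1a, 0.31 ± 0.31 for Ehhadh and 0.64 ± 0.34 for Plin2, so differences of that size could not be told from 0. LIRKO against WT and Z LIRKO against Z share no mice. Of the 7 members that fell in the first, 5 also fell in the second, out of 9 there, and both members that rose in the first are among the 5 that rose in the second. The overlap over all genes was not counted, so whether members overlapped more than other genes is not known. All 6 macrophage markers were higher in Z LIRKO than in Z, with a summed level of 9.16 to 9.40 against 8.26 to 8.75, and 4 of 5 endothelial markers. The summed hepatocyte markers were lower in every Z LIRKO library, at 16.19 to 16.28 against 16.30 to 16.95. Taken singly, 2 of 8 hepatocyte markers passed as lower and 2 as higher, with a median difference of 0.11. Their part in the members' differences was not tested. When plain library sums were used, the share of higher calls over all genes moved from 48.6 to 62.8%, with 7 members higher and 8 lower.

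With a hemizygous PiZ transgene alone, Plin2, Hadhb, G0s2, Acadl and Acot1 were lower and Angptl4 higher. In Z against WT 5 members fell and 1 rose, where 4.54% and 5.89% of all genes did (10.4% together). The median of the members was -0.28, against -0.01 for all genes, and 34 of 42 differences were below 0. Members moved together by mouse, so these are not 42 separate observations. Against the mean of the other mice of its group, WT mouse 1601 was above in 41 of 42 members and WT mouse 1564 below in 39. Likewise Z mouse 1410 was below in 40 and Z mouse 1442 above in 41. Plin2 was at 8.78, 9.23 and 9.96 log2 CPM in WT and at 8.17, 8.56, 8.76, 8.49 and 8.02 in Z, all below WT, and fell by 0.92 ± 0.25 (adjusted p = 0.0164). Hadhb, the thiolase subunit of the trifunctional protein, was at 4.64, 4.95 and 5.33 in WT and at 4.13 to 4.61 in Z, also without overlap (-0.65 ± 0.15, adjusted p = 0.00629). G0s2 (-2.11 ± 0.49), Acadl (-0.56 ± 0.16) and Acot1 (-1.38 ± 0.41), a cytosolic thioesterase, fell with overlapping groups. Angptl4, a secreted inhibitor of lipoprotein lipase, rose from 5.32, 6.50 and 6.65 to 6.30 to 7.64 (1.02 ± 0.29, adjusted p = 0.0267), also with overlap. Ppara differed by -0.15 ± 0.22 and did not pass. The clock values were 0.03 to 3.59 in Z against -0.73 to 1.48 in WT. With the clock value as a covariate the Plin2, Acot1 and Angptl4 calls were lost. The Angptl4 call was also lost with Zstar in place of Z. Without WT mouse 1601 there were 2 calls, 1 in each direction, without Z mouse 1445 there were 3, all lower, and without the Prss2 libraries 2, all higher. Quantile normalization gave 12 lower and 1 higher, and Zstar in place of Z gave 14 lower. The share of higher calls over all genes moved from 56.5 to 67.7% with plain library sums, with 1 member higher and 6 lower.

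The PiZ mice of the other source, Zstar, had lower levels of several PPARA targets than the Z mice. In Zstar against Z 8 members fell and 0 rose, where 5.1% and 4.37% of all genes did (9.47% together). Vnn1, an enzyme that releases pantothenate, was at 3.16, 4.33, 5.67, 4.86 and 3.98 log2 CPM in Z and at -0.43, -0.46, 1.38, -0.71 and 2.04 in Zstar. The groups are far apart, and Vnn1 fell by 4.04 ± 0.76 (adjusted p = 0.00147). Abcd2 was at 3.88 to 5.78 in Z and at 0.24 to 3.22 in Zstar (-3.33 ± 0.52, adjusted p = 0.000261). Mfsd2a, a transporter of lysophospholipids, was at 5.30 to 7.73 and at 2.19 to 4.50 (-3.06 ± 0.59, adjusted p = 0.00187), and Cd36, a fatty acid uptake protein, at 6.75 to 7.46 and at 4.34 to 6.68 (-1.74 ± 0.38, adjusted p = 0.00481). None of these overlap. Ehhadh fell by 0.74 ± 0.19, likewise without overlap, and Plin5 (-1.03 ± 0.25), Acaa1b (-0.84 ± 0.21) and Acot1 (-1.17 ± 0.35) fell with overlap. The Acot1 call was lost in 8 of 10 fits that leave out a mouse. 0 of 11 mitochondrial oxidation genes passed, and Ppara differed by 0.11 ± 0.19. Both groups are labelled PiZ, so source and whatever the asterisk marks cannot be told apart. With plain library sums the share of higher calls over all genes moved from 46.1 to 29.8%, with 0 members higher and 8 lower.

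Mice with a homozygous transgene had the widest fall of members among these comparisons. In ZZ against WT 24 of 42 members fell (57.1%) and 1 rose, where 14.2% of 13690 genes tested fell and 16.1% rose (30.3% together). The median difference of the members was -0.62 against -0.04 for all genes. The fall took in 3 of 3 carnitine shuttle genes, 9 of 11 mitochondrial oxidation genes, 3 of 3 electron transfer genes and 3 of 7 peroxisomal genes, as well as Ppara. Ppara was at 7.0, 7.14 and 7.74 log2 CPM in the WT mice and at 6.09, 5.47 and 6.51 in the ZZ mice. Every ZZ mouse lay below every WT mouse, and Ppara fell by 1.27 ± 0.27 (limma, adjusted p = 0.00205).

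Among the enzymes the smallest p belonged to Etfdh, which passes electrons from the flavoprotein to ubiquinone. It stood at 7.99, 8.11 and 8.43 in WT and at 7.29, 7.12 and 7.34 in ZZ, and fell by 0.93 ± 0.13 (adjusted p = 6.58e-05). Cpt2 was at 7.08, 7.38 and 7.47 and at 6.56, 6.40 and 6.47 (-0.83 ± 0.14, adjusted p = 0.000303). Acsl1 was at 10.08, 11.04 and 10.92 and at 9.17, 8.89 and 9.23 (-1.58 ± 0.26, adjusted p = 0.000333). The groups are apart in all of these, as they are in Creb3l3 (-0.76 ± 0.14, adjusted p = 0.000967), Acaa2 (-0.62 ± 0.13, adjusted p = 0.00156), Etfa (-0.48 ± 0.10, adjusted p = 0.00192) and G0s2 (-2.46 ± 0.52, adjusted p = 0.00215). Cpt1a was at 8.73, 8.78 and 9.41 in WT and at 8.16, 7.63 and 8.44 in ZZ (-0.90 ± 0.21, adjusted p = 0.00489).

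The remaining calls ran along the oxidation spiral. Hadha and Hadhb fell by 0.62 and 0.61, and the dehydrogenases Acadm, Acadl, Acadvl and Acads by 0.61, 0.59, 0.38 and 0.37. The isomerases Eci1 and Eci2 fell by 0.75 and 0.76, Etfb by 0.36 and Slc25a20 by 0.54. In peroxisomes Acaa1a fell by 0.46, Acaa1b by 0.94 and Hsd17b4, the D-bifunctional protein, by 0.41. These peroxisomal calls were lost with plain library sums, with quantile normalization and with only the groups compared. Leaving out a mouse lost them in 3, 5 and 5 of 6 fits. It lost the Slc25a20 call in 5 and those of Eci1, Eci2 and Etfb in 4 each. Outside oxidation Acot1 fell by 2.60 and Mfsd2a by 2.78. The groups of Acadl, Eci1 and Eci2 overlap. The exception was Pdk4, a kinase that shuts pyruvate dehydrogenase, at 3.05, 2.94 and 3.42 in WT and at 4.70, 4.70 and 4.18 in ZZ. It rose by 1.39 ± 0.45 (limma, adjusted p = 0.0272). The Pdk4 call was lost with voom weights and in 4 of 6 fits that leave out a mouse. Hadh, Decr1 and Bdh1, an enzyme of ketone body synthesis, differed by -0.36, -0.45 and -0.55 and did not pass, nor did Fgf21 (1.66 ± 1.01), with 1244, 308 and 316 reads in ZZ.

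The count depends on scaling and on the WT mice. The effective library sizes of the ZZ mice are 1.09 to 1.18 times their read sums and those of the WT mice 0.90 to 0.96 times. With plain library sums 10 members fell and 1 rose, while the share of higher calls over all genes moved from 53.1 to 89.6%. Plain sums shift every gene by the same amount, here the median of all genes from -0.04 to 0.23 and that of the members from -0.62 to -0.34. With quantile normalization 13 fell and 1 rose, and the median of the members lay 0.36 below that of all genes in place of 0.58. Without the Prss2 libraries 2 members fell and 4 rose, against WT mouse 1564 alone. Ppara and Etfdh were called lower in each alternative tried. All 4 cholangiocyte markers were higher in ZZ, with a summed level of 4.79 to 5.04 log2 CPM against 3.08 to 4.20, as were 4 of 5 stellate markers, with 8.65 to 8.88 against 7.79 to 7.81. Of 8 hepatocyte markers 3 were lower, with a summed level of 15.89 to 16.34 against 16.94 to 17.06. Their part in the fall was not tested. The clock values of ZZ, -1.15 to 1.70, overlap with those of WT, -0.97 to 1.60.

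**Figure D4:**
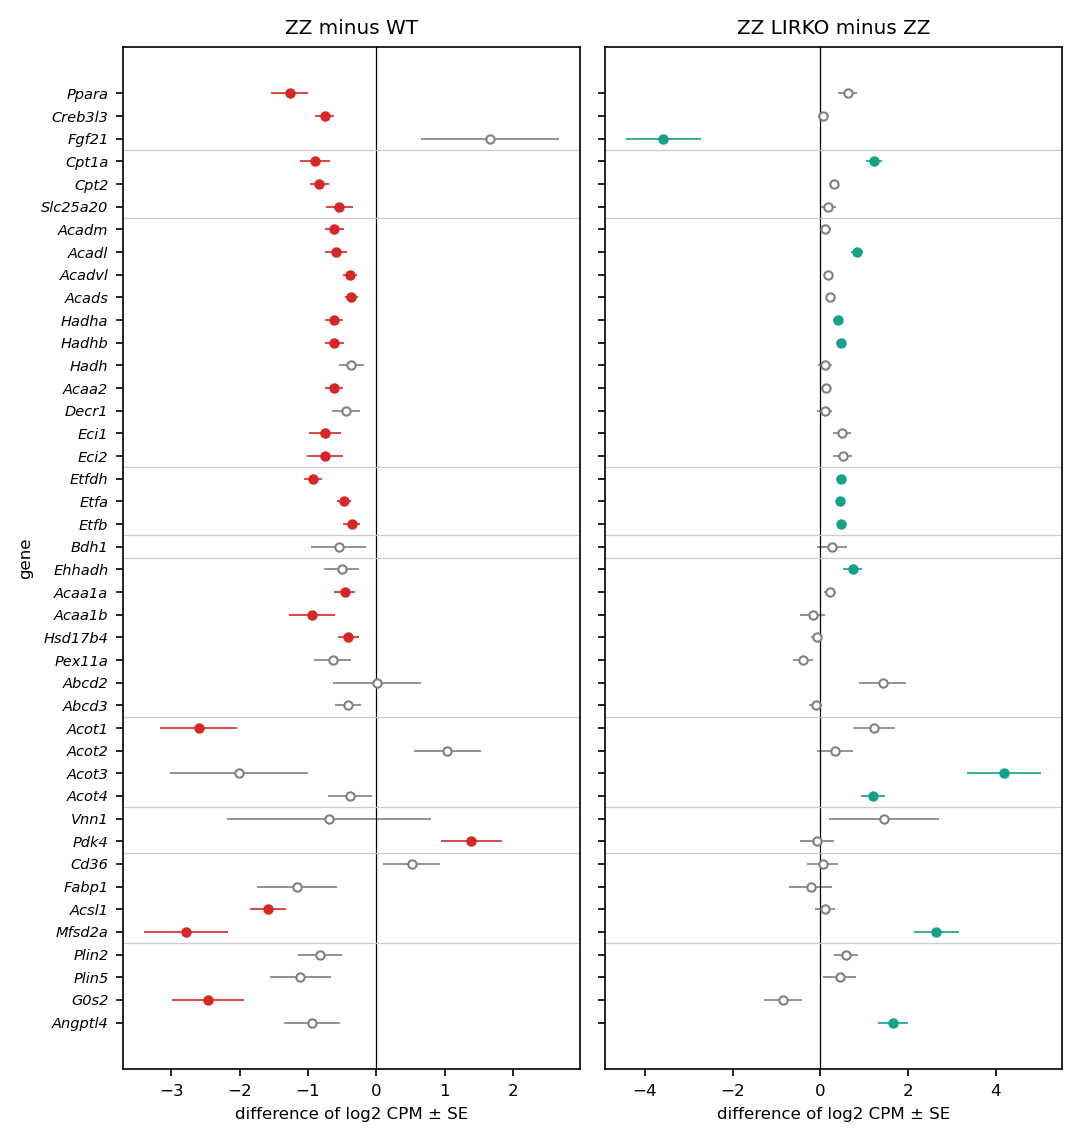
Differences of log2 CPM (x axes) of each member (y axis, grouped by role) in the homozygous table, ZZ minus WT on the left and ZZ LIRKO minus ZZ on the right. Points are fitted differences and bars their SE, filled where adjusted p is under 0.05: 25 members on the left and 13 on the right.

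With loss of the insulin receptor on the homozygous background Cpt1a, the electron transfer genes and the trifunctional protein genes were higher than in ZZ mice. In ZZ LIRKO against ZZ 12 members rose (28.6%) and 1 fell, where 13.2% and 13.6% of all genes did (26.8% together), and the median of the members was 0.33 against -0.01. The ZZ mice enter this comparison and ZZ against WT with opposite signs, so the comparisons are not independent. Cpt1a was at 8.16, 7.63 and 8.44 log2 CPM in ZZ and at 8.95 to 9.50, with a median of 9.37, in the 7 ZZ LIRKO mice, and rose by 1.22 ± 0.18 (adjusted p = 0.000157). Acadl was at 7.18, 7.40 and 7.23 and at 7.93 to 8.29, median 8.12 (0.84 ± 0.13, adjusted p = 0.000288). The groups do not overlap in either gene.

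All 3 electron transfer genes rose, Etfa by 0.45 ± 0.08 (adjusted p = 0.000997), Etfb by 0.48 ± 0.10 (adjusted p = 0.00227) and Etfdh by 0.47 ± 0.11. Etfa, for example, was at 7.33, 7.67 and 7.52 in ZZ and at 7.78 to 8.11, median 7.95, in ZZ LIRKO. Hadhb rose by 0.47, Hadha by 0.41 and Ehhadh by 0.74. Thioesterases and lipid transport genes rose further. Acot3, a peroxisomal thioesterase, was at 0.12, 2.41 and -0.03 in ZZ and at 3.73 to 6.13, median 5.03, in ZZ LIRKO (4.19 ± 0.85, adjusted p = 0.00178), and Acot4 rose by 1.19 ± 0.27 (adjusted p = 0.0038). Mfsd2a was at 2.55, 2.16 and 3.82 and at 3.97 to 6.77, median 5.51 (2.64 ± 0.52, adjusted p = 0.00146), and Angptl4 at 4.83, 4.99 and 5.86 and at 6.14 to 7.64, median 7.01 (1.66 ± 0.34, adjusted p = 0.00205). All 12 members that rose were higher in each ZZ LIRKO mouse than in each ZZ mouse. They were picked by the test on these same mice, so this separation is no further support. How many of all genes are so separated was not counted. Fgf21 had 1244, 308 and 316 reads in ZZ and 12 to 117 in ZZ LIRKO, or 2.16 to 4.37 against -2.20 to 0.75 log2 CPM, with no overlap, and fell by 3.58 ± 0.85 (adjusted p = 0.00537).

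Ppara, Cpt2, Acsl1, Creb3l3 and Acadm were among the members that did not pass. Ppara differed by 0.62 ± 0.23 (adjusted p = 0.0514), Cpt2 by 0.32, Acsl1 by 0.10, Creb3l3 by 0.07 and Acadm by 0.11. Without mice 1876 and 1877 16 rose and 1 fell, an alternative chosen after seeing the data, and with plain library sums 9 rose and 1 fell, with the share of higher calls over all genes moving from 49.4 to 20.2%. All 4 cholangiocyte markers were lower than in ZZ, with a summed level of 3.43 to 3.87 against 4.79 to 5.04, while 4 of 6 macrophage markers, with 8.22 to 8.97 against 7.52 to 8.08, and 4 of 5 endothelial markers were higher. Their part in the rise was not tested. This comparison shares no mice with Z LIRKO against Z, and Cpt1a, Acadl and Ehhadh rose in both, which are 3 of the 12 that rose here and 3 of the 5 that rose there. The same overlap over all genes was not counted.

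The LIRKO effect differed between ZZ and WT backgrounds for 7 members, all with a positive difference (ZZ minus WT background), where 3.03% of all genes passed in that direction and 4.72% in the other (7.75% together). A positive difference can be a smaller fall as well as a larger rise. The difference of effects was 0.85 ± 0.17 for Cpt2 (adjusted p = 0.00853), 2.84 ± 0.66 for G0s2 (adjusted p = 0.0169), 3.26 ± 0.78 for Mfsd2a (adjusted p = 0.0195), 0.65 ± 0.16 for Etfdh, 0.72 ± 0.18 for Creb3l3, 1.04 ± 0.27 for Cpt1a and 1.44 ± 0.41 for Plin2. The Plin2 call was lost in 5 of 9 settings, the clock covariate and leaving out mice 1876 and 1877 among them, and in 14 of 17 fits that leave out a mouse. In G0s2 the LIRKO difference was -3.69 without the transgene and -0.85 with it, and the ZZ mice, at 4.97, 5.02 and 5.19 log2 CPM, lay between the WT mice, at 6.51, 7.87 and 8.19, and the LIRKO mice, at 3.93, 3.60, 3.65 and 4.12. In Cpt1a the difference was 0.17 and 1.22. Ppara did not pass (1.12 ± 0.34, adjusted p = 0.0508). With plain library sums 3 members passed and with quantile normalization 4, and the share of higher calls over all genes moved from 39.1 to 5.71%. Without the Prss2 libraries 1 member passed, in the other direction. Leaving out WT mouse 1564 gave 15 members, and leaving out LIRKO mouse 1483, WT mouse 1601, ZZ mouse 1809, WT mouse 1586 or ZZ mouse 1682 gave 3, 3, 3, 4 and 2.

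Loss of Foxo1 together with the insulin receptor was set against Zstar, the PiZ group of the same source. In Z LIRKO F1KO against Zstar 5 members rose and 2 fell, where 12.4% and 11.1% of all genes did (23.5% together), and the median of the members was 0.04. Abcd2 was at 0.24, 0.26, 3.02, 1.12 and 3.22 log2 CPM in Zstar and at 3.86, 4.95, 5.93, 4.95 and 5.31 in Z LIRKO F1KO, with no overlap (3.43 ± 0.52, adjusted p = 5.95e-05). Ehhadh was at 7.46 to 7.93 and at 8.27 to 9.25 (1.0 ± 0.19, adjusted p = 0.000665), and Plin5 at 4.40 to 5.34 and at 5.59 to 6.41 (0.96 ± 0.25, adjusted p = 0.0075), also without overlap. Mfsd2a (1.98 ± 0.59) and Acot2 (1.16 ± 0.34) rose and Creb3l3 (-0.32 ± 0.10) and Hsd17b4 (-0.37 ± 0.12) fell, all with overlap. Cpt1a and Acadl did not pass, at 0.06 ± 0.14 and 0.12 ± 0.14, and neither did G0s2, at -0.53 ± 0.43, or Fgf21, at 0.26 ± 0.87. With plain library sums 11 members rose and 0 fell, and the share of higher calls over all genes moved from 52.7 to 87.8%. Without Zstar mouse 182 or Z LIRKO F1KO mouse 207, 4 members were called, all higher. All 6 macrophage markers were higher, with a summed level of 9.07 to 10.03 against 8.0 to 8.27, and their part was not tested.

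The F1KO difference sets this effect against that of Z LIRKO against Z, each within its own source. Foxo1 loss occurs only in the source of Zstar. A LIRKO effect that differs between the sources therefore cannot be told apart from Foxo1 loss here. It was passed by 3 members, all with a positive difference of effects, where 3.27% of all genes passed as higher and 3.35% as lower (6.63% together). A lower level in Zstar than in Z adds to this difference. Zstar differed from Z by -3.06 in Mfsd2a and by -1.03 in Plin5, while Pex11a did not pass there. Mfsd2a averaged 5.61 in Z LIRKO F1KO and 5.17 in Z LIRKO, and did not pass between these groups. Plin5 was at 5.20, 5.21, 6.80, 6.66 and 6.60 in Z and at 5.01, 5.06, 5.08 and 5.05 in Z LIRKO, a fall, while it rose from Zstar to Z LIRKO F1KO. The difference of effects was 2.0 ± 0.37 (adjusted p = 0.00141). Mfsd2a was at 5.30 to 7.73 in Z, 3.42 to 5.95 in Z LIRKO, 2.19 to 4.50 in Zstar and 3.54 to 6.84 in Z LIRKO F1KO (3.51 ± 0.86, adjusted p = 0.0153). Pex11a, which fell by 1.25 in Z LIRKO, was at 6.17 to 6.87 in Zstar and at 6.17 to 6.38 in Z LIRKO F1KO (1.10 ± 0.32, adjusted p = 0.0382), a call lost in 13 of 19 fits that leave out a mouse. The difference for Cpt1a was -0.54 ± 0.20 (adjusted p = 0.114) and for Fgf21 3.06 ± 1.26 (adjusted p = 0.146), and neither passed. With plain library sums 4 members passed and the share of higher calls over all genes moved from 49.4 to 74.8%.

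**Figure D5:**
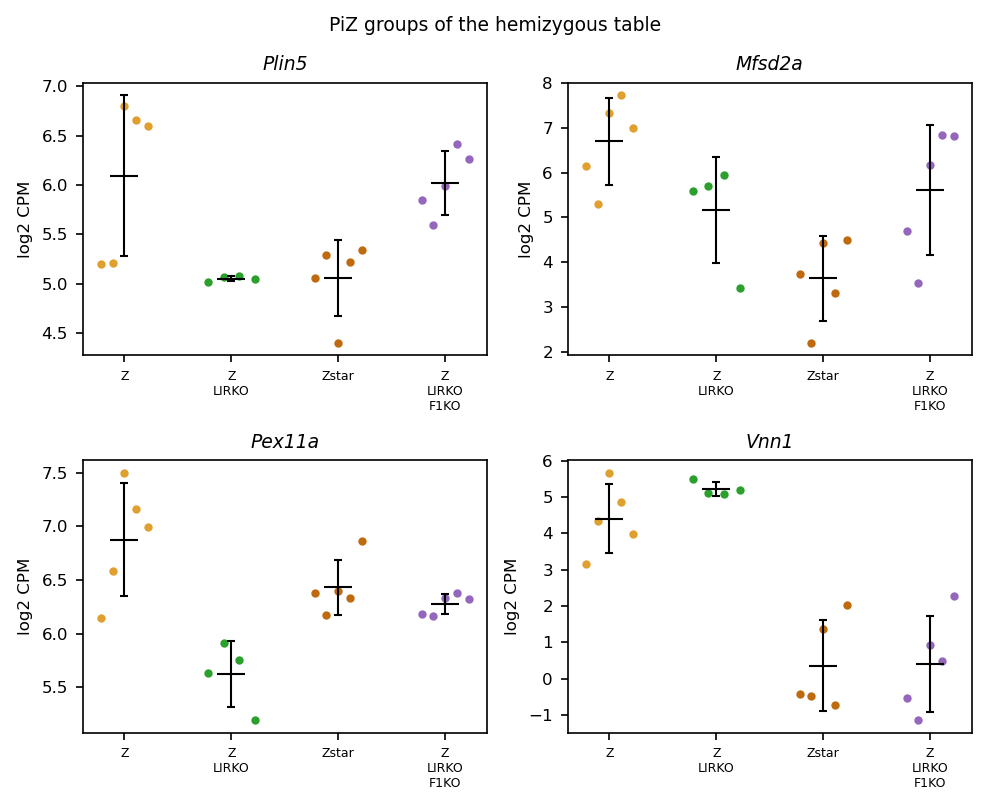
Levels of Plin5, Mfsd2a, Pex11a and Vnn1 in log2 CPM (y axes) in the 4 groups of the hemizygous table that carry PiZ (x axes). Points are mice and bars the mean and SD; Plin5 is at 5.01 to 5.08 in Z LIRKO and at 5.59 to 6.41 in Z LIRKO F1KO.

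A direct contrast of Z LIRKO F1KO with Z LIRKO crosses the sources. It gave 4 higher and 8 lower members, against 11.5% and 11.1% of all genes (22.5% together). Vnn1 was at 5.07 to 5.50 in Z LIRKO and at -1.14 to 2.28 in Z LIRKO F1KO (-4.81 ± 0.80, adjusted p = 0.000112). For comparison, it differed by -4.04 ± 0.76 between Zstar and Z and by 0.04 ± 0.76 between Z LIRKO F1KO and Zstar. In the same order the differences were -1.30, -1.74 and 0.04 for Cd36 and -1.11, -0.84 and -0.27 for Acaa1b. The other lower members were Cpt1a (-0.58), Ehhadh (-0.77), Acadl (-0.54), Eci1 (-0.58) and Abcd2 (-1.61), and the higher ones G0s2 (1.98), Plin5 (0.97), Fgf21 (2.93) and Pex11a (0.65). Of 9 fits that leave out a mouse, 8 lost the Pex11a call and 7 the Abcd2 call. Without Z LIRKO mouse 1428 there were 7 calls in place of 12, and with plain library sums 6 members were higher and 8 lower, with the share of higher calls over all genes moving from 50.9 to 63.1%.

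Followed through all groups, Ppara had its highest mean in WT in both tables, at 7.39 ± 0.42 (SD, n = 3) and 7.30 ± 0.39, and its lowest in Z LIRKO (6.69 ± 0.13, n = 4) and in ZZ (6.03 ± 0.52, n = 3). Between them in the hemizygous table lay Zstar (7.34 ± 0.14), Z (7.23 ± 0.56), LIRKO (7.01 ± 0.13) and Z LIRKO F1KO (6.91 ± 0.23), where each neighbour differed from the next by less than the larger of their SDs. Cpt1a was highest in Z LIRKO (9.47 ± 0.09) and LIRKO (9.42 ± 0.09), followed by WT (9.17 ± 0.37), while Z LIRKO F1KO (8.90), Z (8.88) and Zstar (8.84) did not differ beyond their spread. Ehhadh ran from 9.49 ± 0.25 in Z LIRKO to 7.72 ± 0.20 in Zstar. Fgf21 was lowest in LIRKO (-2.05 ± 0.79) and Z LIRKO (-1.65 ± 1.54), and the groups above them, at 1.03 to 1.81, did not differ beyond their SDs.

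Plin2 was highest in WT, at 9.33 ± 0.59 and 9.45 ± 0.61, and at 8.14 to 8.43 in the other 5 groups of the hemizygous table, while ZZ LIRKO reached 9.22 ± 0.52. Angptl4 was lowest in WT by the hemizygous values (6.16 ± 0.73) and in ZZ by the homozygous ones (5.23 ± 0.56). Pdk4 lay between 2.86 and 3.64 in the hemizygous table and was 4.53 ± 0.30 in ZZ and 4.45 ± 0.71 in ZZ LIRKO against 3.14 ± 0.25 in WT. Cd36 was 7.11 ± 0.34 in Z and 5.37 ± 0.92 in Zstar, with the other hemizygous-table groups between.

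A further 55 genes of the pathway were counted in the same way, and 54 were tested; the share called is given beside that of all genes. In LIRKO against WT 12 fell and 13 rose (46.3% of those tested, against 23.7% of all genes), in the repeat of these mice 11 and 13 (44.4% of those tested, against 27.8% of all genes) and in Z LIRKO against Z 12 and 12 (44.4% of those tested, against 34.3% of all genes). Ppargc1a, a coactivator of PPARA, rose by 2.38 ± 0.34 in LIRKO, and the peroxisomal hydrolase Nudt7 fell by 2.59 ± 0.28. In Z against WT 5 rose and 1 fell (11.1% of those tested, against 10.4% of all genes), led by Lpin2 (1.71) and Lpin1 (2.91), which make diacylglycerol. In Zstar against Z 3 rose and 7 fell (18.5% of those tested, against 9.47% of all genes), with Ppargc1a (-1.62) and the fatty acid hydroxylases Cyp4a10 (-3.63) and Cyp4a14 (-4.05) lower. In ZZ against WT 18 fell and 5 rose (42.6% of those tested, against 30.3% of all genes), with Acat1 (-0.96 ± 0.14), Slc27a5 (-0.84) and Hacl1 (-1.09) lower and Acsl4 (1.03) higher. In ZZ LIRKO against ZZ 21 rose and 8 fell (53.7% of those tested, against 26.8% of all genes), with Ppargc1a (2.64 ± 0.22), Nudt19 (1.03) and Slc27a5 (0.70) higher and Scp2 (-1.30) lower. In Z LIRKO F1KO against Zstar 4 rose and 10 fell (25.9% of those tested, against 23.5% of all genes), among them Bdh2 (-1.30), Ppargc1a (1.48), Slc27a4 (-0.44) and Ucp2 (0.91). In Z LIRKO F1KO against Z LIRKO 7 rose and 12 fell (35.2% of those tested, against 22.5% of all genes). The interaction with Z was passed by 0 (limma, higher or lower), against 0.199% of all genes. That with ZZ was passed by 3, namely Hacl1, Rxra and Acat1, all higher (5.56% of those tested, against 7.75% of all genes). The F1KO difference was passed by 2 higher and 4 lower (11.1% of those tested, against 6.63% of all genes).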

How the data were processed

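The deposited values are log2 CPM per gene. The submitters' processing notes name STAR (2.0.4b), Subread, featureCounts (1.4.5) and GRCm38, with no further settings. Solving the deposited log2 values for reads gave whole reads plus 0.5 over an effective library size, within 0.01 reads, for 100% of the low values. The tables were scaled separately and are tested separately. The hemizygous table has 1 further column that no label matches, which was left out.

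Genes at 0 log2 CPM or more in at least 3 libraries were tested (13596 and 13690, all 42 members among them) with limma (3.58.1, R 4.3.3), fitting a mean for each group of a table and a variance trend. P-values are two-sided, with Benjamini-Hochberg adjustment over all genes tested and a threshold of 0.05; every adjusted p printed is limma's. Errors after ± are standard errors of the fit unless marked SD or given for a group's level, where they are SD. Replicates are separate mice by their numbers.

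The members and lists were chosen with earlier results of these data known. In each comparison all members past the threshold were named, at most 8 with the smallest p in full, and Ppara, Fgf21, Cpt1a, Ehhadh, Pdk4, Cd36, Plin2 and Angptl4 were followed in all groups; other examples were chosen after their values were seen. Of the other pathway genes up to 4 with the smallest p were eligible. The test was run on simulated reads of independent genes with a single setting for their spread. This checks the code and not the calls on these data, where members moved together by mouse. Alternatives were no filter, a pseudocount of 1, voom weights on the recovered reads, plain library sums, quantile normalization, fitting only the groups compared, the clock covariate, other PiZ groups, leaving out the Prss2 libraries and leaving out each mouse; leaving out ZZ LIRKO mice 1876 and 1877 was added after the data were seen.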

Additional observations from a re-analysis of the deposited data

Results flagged for a closer look

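Among 294 sets of values of a member in a group of 4 to 7 mice, 17 (5.78%) had a highest or lowest mouse far from the nearest other by Dixon's test, where chance gives about 5%. In LIRKO of the hemizygous table these were Pex11a (mouse 1468, high at 5.59 log2 CPM), Acot4 (1600, low at 4.46), Mfsd2a (1600, low at 4.69) and Plin2 (1483, low at 8.19). In LIRKO of the homozygous table mouse 1600 stood out in Creb3l3 (high at 7.70), Cpt1a (high at 9.40) and Mfsd2a (low at 4.37), and Mfsd2a was thus low in this mouse in both tables. In Z LIRKO they were Fgf21 (1412, high at 0.66), Eci2 (1427, high at 7.90), Hsd17b4 (1450, low at 8.54) and Mfsd2a (1450, low at 3.42). In Zstar they were Hadhb (285, high at 4.55), Acot1 (285, high at 3.89) and Hsd17b4 (249, low at 8.72). Slc25a20 was low in Z LIRKO F1KO mouse 207 (6.20), Hadhb high in ZZ LIRKO mouse 1858 (7.60) and Vnn1 low in ZZ LIRKO mouse 1813 (2.12).

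The other results set apart are effects that differed between backgrounds by the test of the difference itself. In the F1KO difference these were Plin5 (2.00), Mfsd2a (3.51) and Pex11a (1.10). In the LIRKO effect on ZZ against WT they were Cpt2 (0.85), G0s2 (2.84), Mfsd2a (3.26), Etfdh (0.65), Creb3l3 (0.72), Cpt1a (1.04) and Plin2 (1.44). Mfsd2a is the member in both. The Pex11a call was lost in 13 of 19 fits that leave out a mouse and the Plin2 call in 14 of 17. What causes these differences was not tested.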

How the results depend on the processing

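The comparisons gave 112 calls of a member. Over 1943 alternative fits of these calls, 1589 kept the call, 354 kept the direction but not the call and 0 reversed, and 31 calls held in each alternative tried. Counts of members called moved by over 1.5 times as follows, and the cause was not tested beyond the number of mice left. In ZZ against WT the 25 became 11 with plain library sums, 14 with quantile normalization, 16 with only the groups compared and 6 without the Prss2 libraries. In Z against WT the 6 became 13 with quantile normalization, 2 with only the groups compared, 3 with the clock covariate, 2 without the Prss2 libraries and 14 with Zstar in place of Z. In Z LIRKO F1KO against Zstar the 7 became 11 with plain library sums and 3 without the Prss2 libraries, and in Z LIRKO F1KO against Z LIRKO the 12 became 5 without them. The interaction with Z had 0 members, and 1 without the Prss2 libraries. The interaction with ZZ had 7, and 3 with plain library sums, 4 with quantile normalization and 1 without the Prss2 libraries.

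Leaving out each mouse in turn gave 6 to 9 members in LIRKO against WT, 6 to 11 in the homozygous table, 8 to 14 in Z LIRKO against Z (8 without Z LIRKO mouse 1450), 2 to 9 in Z against WT, 6 to 9 in Zstar against Z, 17 to 33 in ZZ against WT, 12 to 17 in ZZ LIRKO against ZZ, 4 to 10 in Z LIRKO F1KO against Zstar, 7 to 12 against Z LIRKO, 2 to 4 in the F1KO difference, 0 in the interaction with Z and 2 to 15 in that with ZZ. No paired analysis was possible because the groups compared share no mouse numbers; the 7 mice in both tables are in separate tables. At 3 reads a gene stands at about -2.47 log2 CPM in the hemizygous and -4.21 in the homozygous table, which limits Fgf21.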
